A study of Mus musculus with 2 samples.

Results

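Polyamine synthesis and the methionine cycle share S-adenosylmethionine, and 10 genes that run or control these routes were followed through the cell types of the mouse prostate. The genes were Odc1, Azin1, Oaz1, Amd1, Srm, Sms, Sat1, Smox, Mat2a and Ahcy, which are 10 of the 32285 genes listed in both count matrices. They were chosen by name, and all 10 were found under these symbols in both. The data came from droplet single-cell RNA sequencing of prostates of male C57BL6 mice, wild-type and without treatment, dissociated with papain and TrypLE. The series held 2 libraries. One was made from the ventral lobes with version 2 of the Chromium 3′ kit of 10x Genomics, and the other from the proximal and periurethral region, the tissue next to the urethra, with version 3 of that kit. The labels give neither the age nor the number of the animals, nor whether tissue was pooled. Each region had 1 library, so no difference has a replicate check and no test was made. Between the libraries, the region and the version of the kit cannot be told apart.

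The polyamines putrescine, spermidine and spermine are small cations that bind nucleic acids and are needed for growth and translation, and the prostate is known for secreting large amounts of them into seminal fluid. Ornithine decarboxylase, encoded by Odc1, makes putrescine from ornithine, and spermidine and spermine synthases then add aminopropyl groups taken from decarboxylated S-adenosylmethionine. S-adenosylmethionine itself is made from methionine and is also the cell's main methyl donor, so the polyamine route and methylation draw on the same pool. Acetylation and oxidation break polyamines down or send them out of the cell.

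The regions upstream of the start sites of Mat2a and Sat1 are shown because Mat2a separated ventral-type from the other secretory groups in both libraries, and Sat1 separated the secretory groups from all others of at least 50 named cells. Each sequence is the 250 bases before the RefSeq start site, read from the RefSeq table of the build GRCm38.p6, 5′ to 3′ on the gene's own strand, which is the minus strand for both. In the first, the capitals mark the TATA box letters TATAAA, which began 32 bases before the start site. In the second, they mark TGTTCT, the reverse complement of the androgen receptor half-site letters AGAACA, which began 191 bases before the start site.
Mat2a, chr6:72439557-72439806: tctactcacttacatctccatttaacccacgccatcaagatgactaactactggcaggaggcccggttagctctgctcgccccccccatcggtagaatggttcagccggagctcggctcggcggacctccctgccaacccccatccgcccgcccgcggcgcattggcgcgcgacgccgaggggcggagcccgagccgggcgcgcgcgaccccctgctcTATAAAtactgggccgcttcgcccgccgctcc
Sat1, chrX:155216450-155216699: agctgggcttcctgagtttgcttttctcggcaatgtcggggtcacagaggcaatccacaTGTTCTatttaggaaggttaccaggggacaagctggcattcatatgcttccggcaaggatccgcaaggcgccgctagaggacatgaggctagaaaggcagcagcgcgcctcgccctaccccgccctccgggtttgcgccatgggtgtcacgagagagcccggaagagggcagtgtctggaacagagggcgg
Both strands were searched for 4 motifs, and each of these windows held 1 match. Over 27025 promoter windows of the same length, 13.0% held TATAAA and 16.2% held AGAACA, while 6.05% held the E-box CACGTG and 1.62% the cAMP response element TGACGTCA. Neither window held the E-box or the cAMP response element. The Mat2a window had a GC content of 67.6% with 29 CpG sites and the Sat1 window 59.6% with 15, where the medians over all windows were 52% and 6. Of the 10 genes, 8 had an entry in the promoter table; Srm and Azin1 had none. A match is a description of letters and not a binding site.

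Filters left 1988 cells of the ventral and 3705 of the proximal library, whose deposited matrices held 49356586 and 97817603 unique molecular identifiers (UMIs, the tags that count captured RNA molecules). The libraries shared 0 cell barcodes. Cells were clustered without these 10 genes and without 42 further genes of the pathway, and clusters were named from marker genes. Names such as basal stand for basal-like and are given without the suffix. Secretory luminal cells were split by their main product into ventral-type (Sbp, Spink1 and Defb50), Msmb-rich and Tgm4-rich cells. The ventral library gave 1583 ventral-type secretory, 106 Msmb-rich secretory, 103 proximal luminal, 141 basal, 30 macrophage and 25 T or NK cells. The proximal library gave 156 ventral-type, 163 Msmb-rich and 386 Tgm4-rich secretory, 677 proximal luminal, 909 basal, 516 fibroblast, 61 endothelial, 79 macrophage, 27 T or NK, 26 seminal vesicle and 6 smooth muscle cells, and 699 cells stayed unnamed. The unnamed cells had proximal luminal as their best class, with 8 of its 8 markers found, but genes of another class led them. Hbb-bs, Hba-a1 and Hba-a2 led the cluster of 413 of these cells. Upk3a and Ly6d were among the leading genes of the cluster of 286. None of the unnamed cells enters the proximal luminal values. Defining markers were found in at least 25% of the cells for 5 of 5 basal, 6 of 6 macrophage and 5 of 5 endothelial markers in the groups of those names, for 5 of 6 fibroblast markers, and for 7 of 8 (ventral) and 8 of 8 (proximal) proximal luminal markers. Of 9 secretory luminal markers, 6 were found in both secretory groups of the ventral library, where Pate9 was at 0, and 9 in each of the proximal library. Median depth per cell ran from 3751 UMIs in ventral macrophages to 65875 in proximal Msmb-rich cells.

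Levels are given on the counts-per-million scale (CPM), made from the UMIs of a gene and of all genes, both summed over the cells of a group, with the exact 95% Poisson interval. A comparison of 2 groups is the ratio of their CPM with its exact 95% interval. A gene is called past the fold when that ratio is at least 2 in either direction and the interval leaves out 1. All intervals cover counting error only, since cells of 1 library are not replicates. Kit chemistry counts molecules at their 3′ ends, so levels are compared between groups for the same gene and not between genes. Orders and ranges of levels are over the 12 groups of at least 50 named cells, and smaller groups are given by name.

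Secreted products weigh on this scale. Sbp and Spink1 together took 47.9% of all UMIs in ventral-type secretory cells of the ventral library and 52.6% in those of the proximal library, against 14.1% and 2.11% in the Msmb-rich cells. A second scale, CPM without secretory products, therefore leaves 8 secretory products and the mitochondrial genes out of the total. Secretory transcripts were also found in other cells of the ventral library: 45 of 103 proximal luminal, 4 of 141 basal, 2 of 30 macrophage and 14 of 25 T or NK cells there took over 5% of UMIs from Sbp plus Spink1. These are called mixed cells. No cell outside the secretory groups of the proximal library passed that limit, and Sbp and Spink1 held between 0.105% and 0.229% of the UMIs of its non-secretory groups. Whether mixed cells are doublets, free RNA or cells of both kinds was not tested, and values of the ventral proximal luminal group and counts of genes past the fold that rest on it are also given without them.

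Across the 12 groups of at least 50 named cells, Srm and Sat1 separated the secretory groups from all others. Srm, the spermidine synthase gene, stood between 77.6 and 136 CPM in the 5 secretory groups and between 8.13 and 64.4 CPM in the other 7. Sat1, the gene of the acetyltransferase that starts polyamine breakdown, stood between 47.3 and 169 CPM in the secretory groups and between 216 and 733 CPM in the others. Of 16270 genes with at least 50 UMIs over these groups, 0.688% were higher and 2.88% lower in all 5 secretory groups than in all 7 others, and 1 member was in each set. Both separations were also seen on the scale without secretory products, where Srm was at 101 CPM or more in secretory groups and at 86.1 or less elsewhere, and Sat1 at 186 or less and at 288 or more, where 3.79% of genes were higher and 1.46% lower without overlap. Without mixed cells, the ventral proximal luminal group stood at 29.5 CPM of Srm and 387 of Sat1, on the same sides. The unnamed clusters of 286 and 413 cells, outside the 12 groups, had 11.0 and 11.9 CPM of Srm and 552 and 346 of Sat1. Cluster by cluster, the ventral proximal luminal cluster of 60 cells with 30.7% of its UMIs from Sbp and Spink1 stood among the secretory clusters, at 86.7 CPM of Srm and 109.6 of Sat1. The Tgm4-rich clusters of 146 and 57 cells had 214 (197 to 231) and 209 (171 to 253) CPM of Sat1, which reached the ventral proximal luminal group. The cluster of 57 cells had 69.6 CPM (48.5 to 96.8) of Srm, an interval that reached the fibroblast cluster at 55.6 (46.1 to 66.4). Of the smaller groups, the 26 seminal vesicle cells had 48.4 CPM of Srm and 204 CPM of Sat1, and the 27 proximal T or NK cells had 13.9 and 195. Both thus had less Sat1 than these Tgm4-rich clusters. The 25 ventral T or NK cells, 14 of them mixed, had 125 and 59.6, or 37.6 from 2 UMIs and 75.1 from 4 without the mixed cells. Mat2a did not follow that split, since it was high in ventral-type secretory cells and lower in the other secretory groups, where 1 Tgm4-rich cluster of 57 cells reached the ventral-type range. Between the lowest and the highest of the 12 groups, the members ranged from 2.49-fold for Oaz1 to 87.5-fold for Smox.

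**Figure D1:**
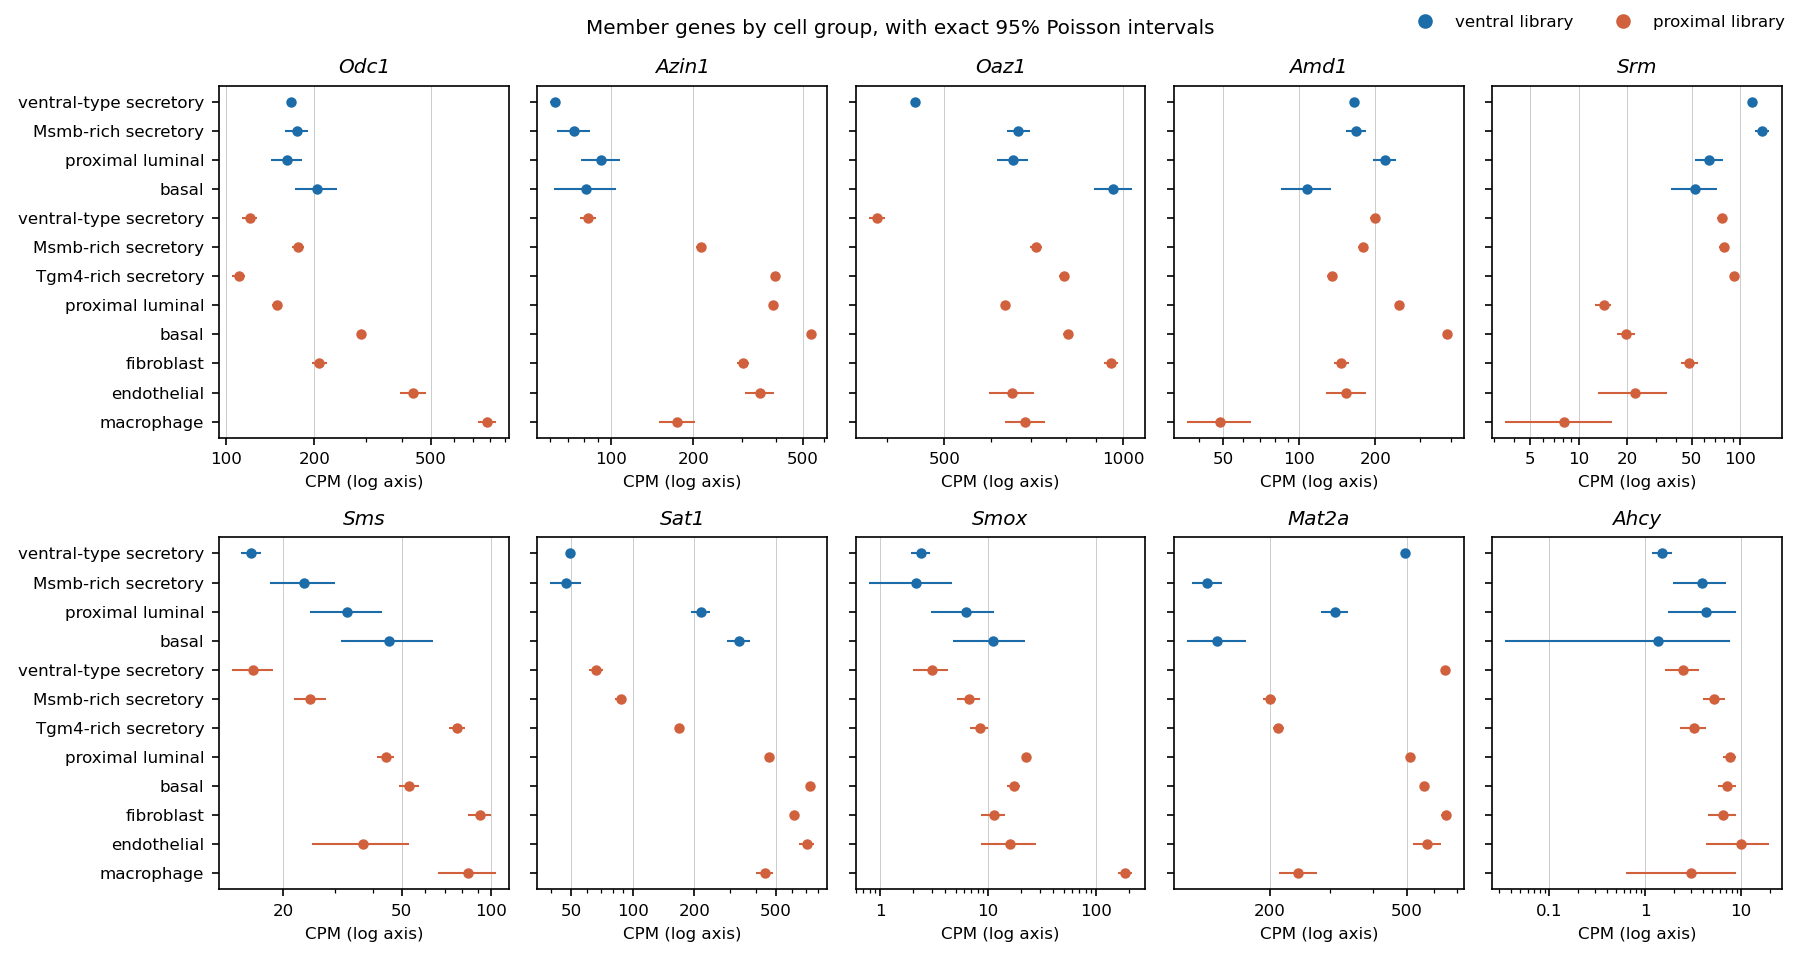
Levels of the 10 genes in CPM (log axis) in 12 cell groups, with blue points for the ventral and orange points for the proximal library and bars for exact 95% Poisson intervals. Srm is at 77.6 CPM or above in all secretory groups and at 64.4 or below in all others, and Sat1 is at 169 or below and at 216 or above.

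Odc1 encodes the enzyme that commits ornithine to polyamine synthesis (chromosome 12, 17544794 to 17551505, plus strand, GRCm38). In the ventral library it stood at 166 CPM (162 to 170) in ventral-type cells, 174 (159 to 190) in Msmb-rich cells, 161 (142 to 182) in proximal luminal cells and 204 (172 to 240) in basal cells. In the proximal library it stood at 120 CPM (113 to 127) in ventral-type, 176 (168 to 184) in Msmb-rich and 110 (105 to 116) in Tgm4-rich cells, 149 (144 to 154) in proximal luminal and 290 (280 to 299) in basal cells. The 3 ventral luminal groups thus had overlapping intervals, but without mixed cells the proximal luminal cells had 99.5 CPM (76.6 to 127), and secretory luminal cells stood above them at a ratio of 1.67 (1.31 to 2.18). Macrophages of the proximal library, at 777 CPM (723 to 834), and endothelial cells, at 436 (391 to 484), stood above all of these, while fibroblasts, at 208 (196 to 221), overlapped with ventral basal cells. A single cell gave 14.6% of the macrophage UMIs, 13.6% of the endothelial UMIs and 30.9% of those behind the 1251 CPM of the 27 T or NK cells. Without secretory products in the total, the ventral-type cells came to 336 CPM in the ventral and 275 CPM in the proximal library, above the proximal luminal cells of the same library, at 215 (107 without mixed cells) and 157 CPM.

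Within the proximal basal group Odc1 was uneven. The basal cluster of 517 cells led by Krt14 and Krt17 had 383 CPM, while the cluster of 227 cells led by Grp and Ivl had 188 and the cluster of 165 cells led by Trp63 had 169. The summed level of 8 dissociation stress genes (Fos, Jun, Junb, Egr1, Atf3, Hspa1a, Hspa1b and Dnajb1) was 10853 CPM in the first, 6382 in the second and 15898 in the third. The part of dissociation stress in these levels was not tested.

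Azin1 and Oaz1 act on ornithine decarboxylase as protein. Oaz1 encodes antizyme, which binds the enzyme and sends it to the proteasome, and Azin1 encodes an inhibitor that takes antizyme away. Oaz1 (chromosome 10, 80826656 to 80829290, plus strand) was the most even of the 10 genes over the 12 groups, from 385 CPM (373 to 397) in proximal ventral-type cells to 961 (891 to 1035) in ventral basal cells. The 27 proximal T or NK and 6 smooth muscle cells had 1004 and 1059 CPM. Without secretory products, its 5 secretory groups lay between 875 and 999.8 CPM, beside 871 in proximal luminal cells of the ventral library, 666 in those of the proximal library and 996 in fibroblasts. The low CPM of ventral-type cells was thus not seen on that scale. Of the 91-base windows of its transcript, the length of the sequenced cDNA read, 43.2% were found letter for letter in the transcript of another gene, and 30.2% of those in its last 500 bases. For Odc1 the shares were 23.7% and 9.51%, and for Sms 27.9% and 0%.

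Azin1 (chromosome 15, 38487427 to 38519266, minus strand) stood at different levels in the 2 libraries. It lay between 62.7 CPM (60.3 to 65.1) and 92.3 CPM (78.1 to 108) in the 4 ventral groups, the highest being proximal luminal cells, which had 121 (95.8 to 151) without mixed cells. Proximal groups had it at 82.7 CPM (77.2 to 88.6) in ventral-type, 213 (204 to 221) in Msmb-rich and 396 (385 to 407) in Tgm4-rich secretory cells, at 390 (381 to 398) in proximal luminal and 536 (523 to 549.5) in basal cells. Fibroblasts had 303 CPM (289 to 318), endothelial cells 349 (309 to 392) and macrophages 175 (150 to 203). The ventral-type cells had the lowest CPM of Azin1 in the proximal library, though on the scale without secretory products they had 189.5 CPM (177 to 203) and macrophages 181 (155 to 210.3). Its clusters also spread widely: the 8 ventral-type clusters of the ventral library ran from 17.2 to 119 CPM, the 4 proximal luminal clusters from 161 to 611 CPM and the 3 proximal basal clusters from 218 to 636 CPM. The ventral cluster with 119 CPM was led by Cxcl10, Ifrd1 and Tacc2 with 4895 CPM of the stress genes. The cluster with 17.2 CPM had 1192 CPM of them and 0.638% mitochondrial UMIs. Their part in these levels was not tested either.

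Amd1 encodes S-adenosylmethionine decarboxylase, which supplies the aminopropyl groups (chromosome 10, 40287458 to 40302186, minus strand). Its CPM was highest in proximal basal cells at 386 CPM (375 to 397) and lowest in macrophages at 48.8 (36.0 to 64.7). Proximal luminal cells had 218 CPM (196 to 242) in the ventral, or 250.3 (213 to 292) without mixed cells, and 248 (242 to 255) in the proximal library. Secretory groups lay between 135 CPM in Tgm4-rich and 200 CPM in proximal ventral-type cells, and ventral basal cells, fibroblasts and endothelial cells lay at 108, 147 and 153 CPM. Basal cells of the 2 libraries thus stood near opposite ends of the order. Once secretory products were left out, the proximal ventral-type cells had the most, 458.1 CPM beside 403 in proximal basal cells. Of its 91-base windows, 78.3% were found in the transcript of another gene, and 98.5% of those in its last 500 bases, the end that the kit reads. The listed copy is Amd2, 99.6% identical over 3202 bases, which held 359 ventral and 443 proximal UMIs over all barcodes, beside 8182 and 22006 of Amd1. How reads were split between the 2 genes is not known, so the Amd1 levels are uncertain.

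Srm encodes spermidine synthase (chromosome 4, 148591503 to 148594993, plus strand). Ventral Msmb-rich cells had 136 CPM (123 to 151) and ventral ventral-type cells 118 (115 to 122). Of the proximal groups, the Tgm4-rich cells had 91.4 CPM (86.3 to 96.7), the Msmb-rich cells 79.0 (73.8 to 84.4) and the ventral-type cells 77.6 (72.3 to 83.3). These 5 secretory levels were the top of the order, and the intervals of the last 2 overlapped. On the second scale, ventral-type cells stood first in each library, at 240 and 178 CPM beside 205 and 104 in the Msmb-rich cells. Below them came ventral proximal luminal cells at 64.4 CPM (52.6 to 78.0), ventral basal cells at 52.4 (37.1 to 71.9) and fibroblasts at 48.6 (42.9 to 54.8), with intervals that overlapped from each to the next. Endothelial cells at 22.3 CPM (13.2 to 35.2), proximal basal cells at 19.6 (17.2 to 22.2), proximal luminal cells of the proximal library at 14.3 (12.7 to 16.0) and macrophages at 8.13 (3.51 to 16.0) closed the order. The interval of the ventral proximal luminal cells also reached those of the proximal ventral-type and Msmb-rich cells, while without mixed cells it lay at 29.5 CPM (17.8 to 46.1), below both. Fibroblasts were thus the stromal group with the most Srm, 2.48-fold (2.07 to 2.97) above proximal basal cells.

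After thinning each cell to 1000 UMIs, which makes shares comparable between depths, Srm was found in 10.6% of ventral ventral-type cells, 18.9% of ventral Msmb-rich, 8.97% of proximal ventral-type, 8.92% of Tgm4-rich and 12.3% of proximal Msmb-rich cells. It was found in 2.07% of proximal luminal and 1.76% of basal cells of the proximal library, near the 2.56% of its macrophages. Without thinning, the shares were 89.6% of ventral ventral-type cells, 29.7% of proximal luminal, 20.5% of basal and 6.33% of macrophages, at median depths of 27293, 21440, 12000 and 11922 UMIs. The secretory shares stood above the macrophage share on both counts, and the exact interval of the thinned macrophage share was 0.312% to 8.96%.

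Sms encodes spermine synthase (chromosome X, 157443855 to 157492287, minus strand) and did not follow Srm. Fibroblasts had 91.5 CPM (83.6 to 99.9), macrophages 83.3 (66.3 to 103) and Tgm4-rich secretory cells 76.6 (71.9 to 81.5). Ventral-type cells were lowest of the 12 groups, with 15.7 CPM (14.5 to 16.9) in the ventral and 15.9 (13.5 to 18.6) in the proximal library, followed by Msmb-rich cells with 23.5 (18.2 to 29.9) and 24.7 (21.8 to 27.8). That order did not hold without secretory products. There proximal ventral-type cells had 36.4 CPM, beside 35.2 in ventral and 32.7 in proximal Msmb-rich cells. The 26 seminal vesicle cells had 6.31 CPM (2.32 to 13.7) from 6 UMIs. Basal and proximal luminal cells lay between 32.8 and 53.0 CPM, and the lowest of these, the ventral proximal luminal cells, had 52.9 (36.6 to 73.9) without mixed cells. Tgm4-rich cells were therefore the secretory group with high levels of both synthases.

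Sat1 encodes spermidine/spermine N1-acetyltransferase (chromosome X, 155213132 to 155216449, minus strand). In the ventral library it stood at 49.6 CPM (47.5 to 51.7) in ventral-type and 47.3 (39.6 to 56.1) in Msmb-rich cells, at 216 (193 to 239) in proximal luminal, 329 (289 to 374) in basal and 520 (418 to 639) in the 30 macrophage cells. Proximal secretory groups had it at 66.2 CPM (61.3 to 71.5) in ventral-type, 87.3 (81.9 to 93.0) in Msmb-rich and 169 (162 to 176) in Tgm4-rich cells. There it stood at 464 (455 to 474) in proximal luminal, 733 (718 to 748) in basal, 614 (593 to 635) in fibroblast, 708 (651 to 768) in endothelial and 441 (400 to 484) in macrophage cells. No secretory interval reached that of a non-secretory group among these, and the neighbours that overlapped among groups of at least 50 cells were basal with endothelial and proximal luminal with macrophage cells of the proximal library, and the 2 secretory groups of the ventral library. The 30 ventral macrophages overlapped with fibroblasts and with proximal luminal and macrophage cells of the proximal library, and had 793 CPM (630.4 to 984) without their 2 mixed cells. Without mixed cells, ventral proximal luminal cells had 387 CPM (340.5 to 438), which overlapped with the ventral basal cells. In the median cell, Sat1 stood at 36.8 CPM in ventral-type cells of the ventral library and at 540 CPM in basal cells of the proximal library.

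Smox encodes spermine oxidase, which turns spermine back to spermidine and releases hydrogen peroxide (chromosome 2, 131491496 to 131525922, plus strand). Its level was highest in proximal macrophages with 187 CPM (161 to 216), followed by the 27 proximal T or NK cells with 97.6 (60.4 to 149) from 21 UMIs and the ventral macrophages with 46.2 (19.9 to 91.1) from 8 UMIs, or 77.3 (33.4 to 152) without mixed cells. Proximal luminal cells of the proximal library had 22.5 CPM (20.6 to 24.6), basal cells 17.3 (15.03 to 19.8), endothelial cells 16.1 (8.57 to 27.5) and fibroblasts 11.2 (8.59 to 14.4). Ventral basal cells had 11.0 (4.76 to 21.7). Secretory groups lay between 2.14 and 8.34 CPM, and the ventral proximal luminal cells, at 6.19 (2.97 to 11.4), or 9.33 (3.42 to 20.3) without mixed cells, reached into that range. With mixed cells kept, Smox thus did not separate the secretory groups from all others as Sat1 did. Without them the ventral proximal luminal level, from 6 UMIs, lay above the highest secretory level, though its interval reached below it. The highest group of Smox was the macrophages where that of Sat1 was the proximal basal cells.

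Mat2a encodes the catalytic subunit of the methionine adenosyltransferase that makes S-adenosylmethionine outside the liver (chromosome 6, 72432799 to 72439558, minus strand, overlapped on the plus strand by Particl). Ventral-type secretory cells had 494 CPM (487 to 501) in the ventral and 646 (631 to 662) in the proximal library. Msmb-rich cells had 131 CPM (118 to 145) and 200 (191 to 208), and Tgm4-rich cells 211 (203 to 219). As groups, ventral-type cells thus stood above the other secretory cells in both libraries, with no overlap of intervals. Of the 3 Tgm4-rich clusters, 2 had 200.0 and 206 CPM, but the cluster of 57 cells had 455 (398 to 518), which overlapped with ventral-type clusters of the ventral library. That cluster had a median of 5638 UMIs per cell and 21444 CPM of the stress genes, whose part was not tested. Fibroblasts had 649 CPM (628 to 671), endothelial cells 573 (522 to 628), proximal basal cells 562 (548 to 575) and proximal luminal cells of the proximal library 512 (503 to 522). Ventral proximal luminal cells had 308 CPM (282 to 337), or 154 (125 to 187) without mixed cells, proximal macrophages 242 (212 to 275) and ventral basal cells 141 (115 to 171). In the order from highest to lowest, fibroblasts and proximal ventral-type cells overlapped, as did endothelial and proximal basal cells, macrophages and Tgm4-rich cells, Tgm4-rich and proximal Msmb-rich cells, and ventral basal and ventral Msmb-rich cells.

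The contrast between ventral-type and Msmb-rich cells held cell by cell as a shift and not as a few extreme cells. The middle 50% of ventral-type cells lay between 282 and 629 CPM of Mat2a in the ventral and between 329 and 870 CPM in the proximal library. The middle 50% of Msmb-rich cells lay between 44.4 and 172 CPM in the ventral and between 83.8 and 255 CPM in the proximal library. These ranges did not overlap in either library, and the single highest cell gave no more than 6.82% of the Mat2a UMIs of any of these 4 groups. After thinning to 1000 UMIs, Mat2a was found in 37.1% (34.7% to 39.5%) of ventral-type and 5.66% (2.11% to 11.9%) of Msmb-rich cells of the ventral library, and in 46.8% (38.8% to 54.9%) and 12.3% (7.71% to 18.4%) in the proximal library, by exact Clopper-Pearson intervals. Unthinned shares were 98.0% and 78.3%, and 97.4% and 94.5%. Proximal macrophages, where Mat2a is also expressed, had 20.5% after thinning and 83.5% before. Of the 8 ventral-type clusters of the ventral library, 7 lay between 469 and 545 CPM, and the cluster of 68 cells with 0.638% mitochondrial UMIs lay at 244 CPM, still above the ventral Msmb-rich cells.

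Ahcy encodes the hydrolase that clears S-adenosylhomocysteine, the product of methylation (chromosome 2, 155059310 to 155074497, minus strand). It was sparse, with 86 UMIs over all ventral and 630 over all proximal barcodes. Its level was at most 5.27 CPM in the secretory groups and lay between 6.44 and 9.90 CPM in proximal luminal, basal, fibroblast and endothelial cells of the proximal library. Ventral basal cells had 1 UMI and ventral macrophages 0 of 173126 UMIs, which allows up to 21.3 CPM by the Poisson interval. Of its 91-base windows, 72.9% were found in another gene's transcript, and the listed copy Gm4737 matched it to 99.7% over 2083 bases, with 6 ventral and 19 proximal UMIs. None of the windows in the last 500 bases of Ahcy was shared. Several ratios of Ahcy rest on few UMIs.

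**Figure D2:**
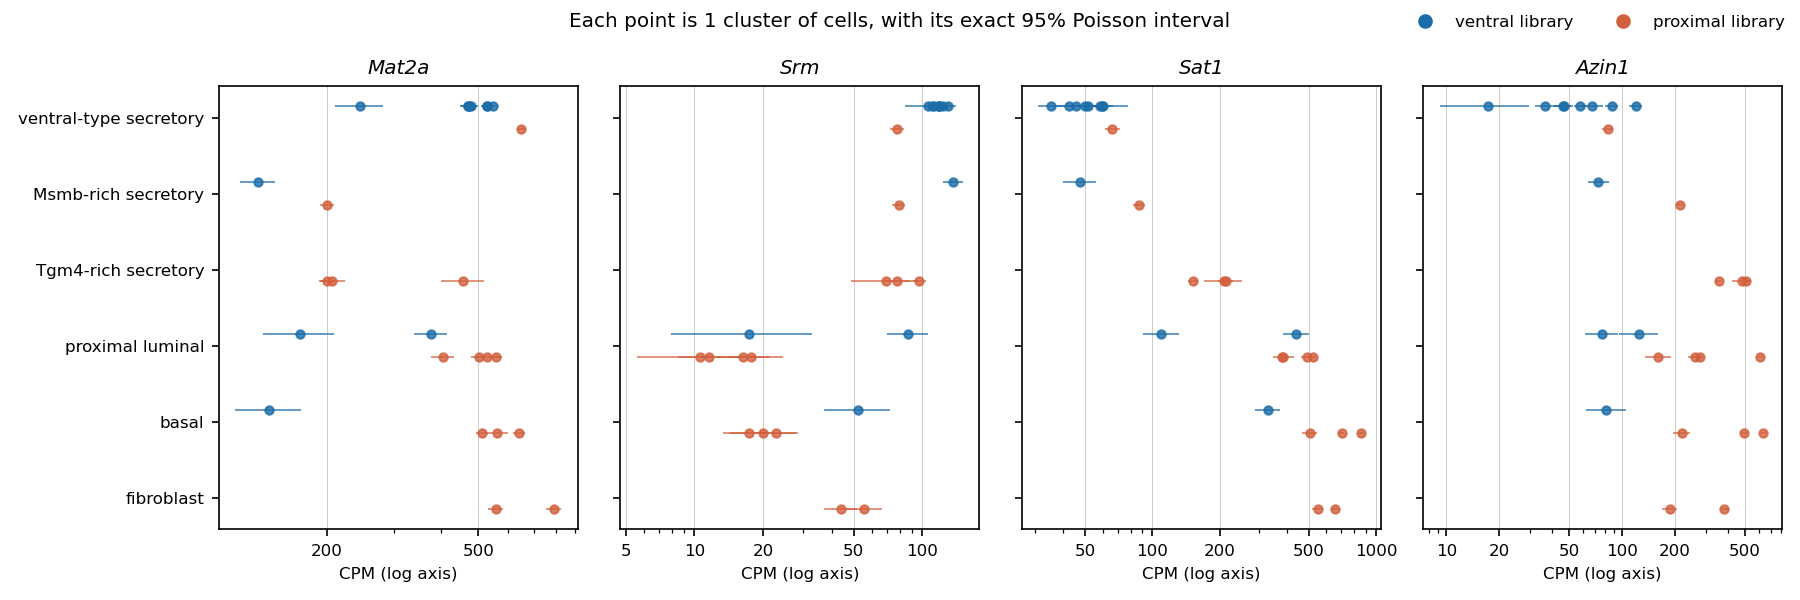
Levels of Mat2a, Srm, Sat1 and Azin1 in CPM (log axis) in each cluster of at least 25 cells, with blue points for the ventral and orange points for the proximal library and bars for exact 95% Poisson intervals. The 2 ventral proximal luminal clusters stand apart for all 4 genes, at 374 and 169 CPM of Mat2a, and ventral-type clusters spread from 17.2 to 119 CPM for Azin1.

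The first comparison asked how secretory luminal cells differ from proximal luminal cells of the ventral library, with the same kit and dissection. Of the 10 genes, 0 were past the fold on the higher side, where 1.02% of 11105 genes were, and 4 on the lower side, where 29.8% were. The lower genes were Sat1, 4.36-fold lower (3.88 to 4.88), Smox, 2.62-fold (1.22 to 5.01), Ahcy, 2.61-fold (1.01 to 5.64), and Sms, 2.03-fold (1.51 to 2.69). Only Sat1 passed once the 1% of cells with the most UMIs of each gene were left out. Srm and Mat2a were at ratios of 1.85 (1.53 to 2.27) and 1.53 (1.40 to 1.67). Of the 1689 secretory luminal cells, 1583 were ventral-type. The 106 Msmb-rich cells had 131 CPM of Mat2a, less than both proximal luminal clusters, at 374 and 169. The median log2 ratio was −0.52 over the members and −0.70 over all genes tested, and on the scale without secretory products it was 0.05 and −0.13. On that scale Srm was 2.75-fold higher (2.27 to 3.37) and Mat2a 2.27-fold higher (2.08 to 2.48), where 3.92% of genes were called higher, and Sat1 was 2.94-fold lower (2.62 to 3.29), where 11.4% were called lower. Srm, Mat2a and Sat1 thus kept their directions on both scales. Stress genes summed to 5223 and 14345 CPM in the proximal luminal clusters of 60 and 43 cells. In the secretory clusters they summed to between 918 and 4895 CPM, and their part was not tested.

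Mixed cells moved these values. The 58 ventral proximal luminal cells left without them had 154 CPM (125 to 187) of Mat2a, 29.5 (17.8 to 46.1) of Srm and 387 (340 to 438) of Sat1, with 1.35% of their UMIs from Sbp and Spink1. The 45 mixed cells had 411 CPM of Mat2a, 87.5 of Srm and 102 of Sat1, with 34.4%. The mixed cells therefore stood nearer to the secretory cells for all 3 genes. Without them Oaz1 stood at 846 CPM, where the mixed cells had 523. Of the 10 genes, 2 were then past the fold on the higher side, where 1.83% of 11059 genes were, and 3 on the lower side, where 45.2% were. Without mixed cells, secretory luminal cells had 4.04-fold more Srm (2.59 to 6.72), 3.06-fold more Mat2a (2.52 to 3.77) and 7.83-fold less Sat1 (6.84 to 8.93) than proximal luminal cells in CPM, at a median log2 ratio of −1.10 over all genes. In CPM the Mat2a difference rested on the ventral-type cells, since the 106 Msmb-rich cells had 131 CPM (118 to 145), beside the 154 of these proximal luminal cells. Smox was 3.95-fold (1.42 to 8.88, from 6 UMIs in proximal luminal cells) and Sms 3.27-fold (2.25 to 4.61) lower, and Ahcy, from 3 UMIs there, was 2.80-fold lower (0.566 to 8.51) and no longer past the fold. With secretory products left out, the same differences were 7.47-fold, 5.66-fold and 4.24-fold, and Odc1 was 3.09-fold higher (2.42 to 4.02), where 7.52% of genes were called higher and 17.2% lower. Sms and Smox were not past the fold there. The cluster of 60 cells led by Saa1 and Lcn2, with 30.7% of its UMIs from Sbp and Spink1, had 374 CPM of Mat2a, and the cluster of 43 cells led by Wfdc2 and Ppp1r1b, with 1.27%, had 169.

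**Figure D3:**
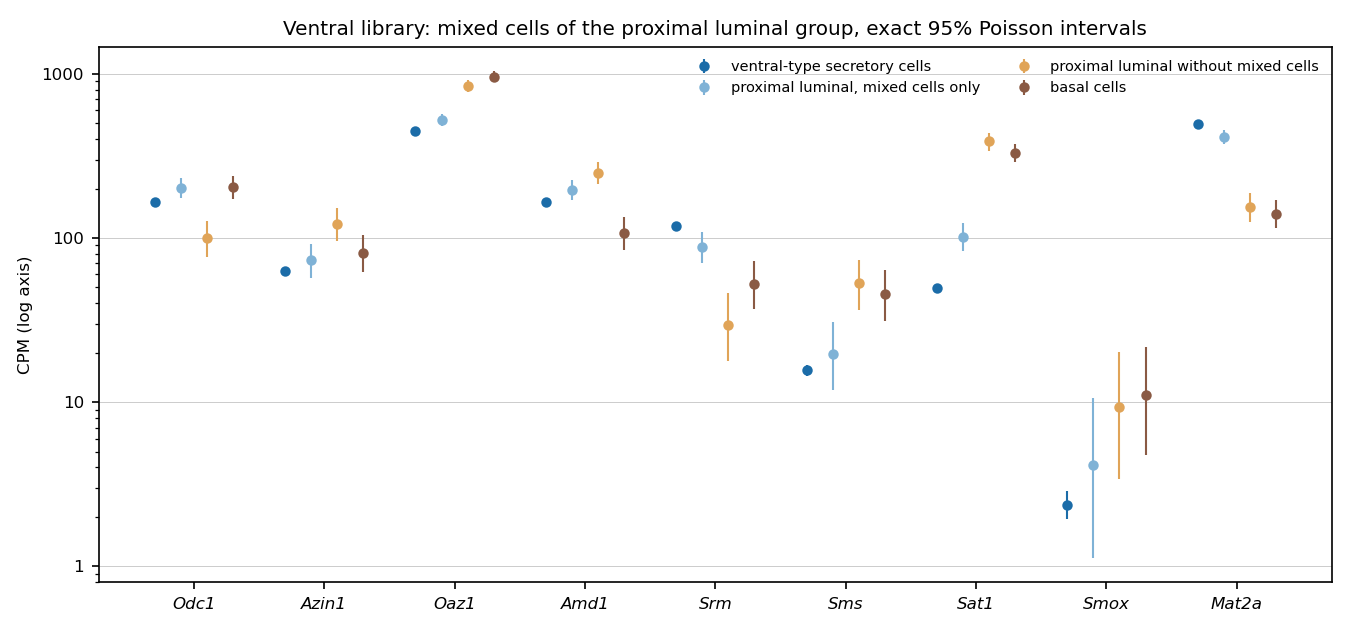
Levels of 9 genes in CPM (log axis) in 4 sets of cells of the ventral library, with exact 95% Poisson intervals; Ahcy is left out for its low counts. The mixed cells of the proximal luminal group, at 411 CPM of Mat2a and 102 of Sat1, lie towards the ventral-type secretory cells for these 2 genes, and the remaining cells, at 154 and 387, lie nearer to the basal cells. For Odc1 and Amd1 the remaining cells, at 99.5 and 250.3, do not lie near the basal cells.

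Against basal cells of the ventral library, secretory luminal cells had 3.35-fold more Mat2a (2.76 to 4.12) and 2.28-fold more Srm (1.66 to 3.23), and less of 4 genes. These 2 higher members stood against 6.89% of 11136 genes called higher, and the 4 lower ones against 32.4% called lower. Lower were Sat1, 6.67-fold (5.81 to 7.62), Smox, 4.67-fold (1.97 to 9.53, from 8 UMIs in basal cells), Sms, 2.81-fold (1.92 to 3.99), and Oaz1, 2.09-fold (1.93 to 2.25). On the scale without secretory products, Mat2a was 6.41-fold (5.28 to 7.86), Srm 4.36-fold (3.17 to 6.16) and Amd1 2.93-fold (2.34 to 3.71) higher, where 20.3% of genes were called higher. Sat1 and Smox were 3.49-fold and 2.44-fold lower there, where 11.6% were called lower, and Oaz1 was 1.09-fold lower. Oaz1 and Sms were thus past the fold in CPM alone. In CPM the Mat2a difference rested on ventral-type cells, 1583 of the 1689 secretory cells. The 106 Msmb-rich cells had 131 CPM of Mat2a beside 141 in basal cells, and 197 beside 146 without secretory products. The members' median log2 ratio was −0.33 in CPM and 0.61 on the second scale, beside −0.72 and 0.22 over all genes. Without the 4 mixed basal cells, the same 2 and 4 members were past the fold in CPM, where 6.93% and 32.2% of 11133 genes were. The ventral basal cells also held fibroblast transcripts: 6 fibroblast markers summed to 5306 CPM beside 4509 CPM for 5 basal markers, with Dcn and Sparc among their leading genes, though only 1 of the 6 was found in at least 25% of these cells. The proximal basal cells had 1342 CPM of the fibroblast markers, also with 1 of 6 so found. Stress genes summed to 11367 CPM in the ventral basal cells and to between 918 and 4895 in the secretory clusters. The part of fibroblast transcripts and of stress in these ratios was not tested.

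Proximal luminal over basal cells of the ventral library had Mat2a at 2.19-fold (1.77 to 2.74) and Amd1 at 2.03-fold (1.58 to 2.63), 2 of 8 members with at least 50 UMIs, where 19.2% of 4873 genes were called higher. None of the 8 was called lower, where 13.2% were. Without mixed cells the ratio of Mat2a was 1.07 (0.80 to 1.42) and no longer past the fold, that of Amd1 was 2.33 (1.76 to 3.10), and Odc1 was 2.09-fold lower (1.55 to 2.85), where 25.7% of 3536 genes were called higher and 9.7% lower.

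In the proximal library, Srm was higher and Sat1 and Smox were lower in each of the 3 secretory groups than in proximal luminal cells. The 3 comparisons share the proximal luminal cells. For ventral-type cells, Srm was 5.45-fold higher (4.76 to 6.24), where 7.39% of 12327 genes were called higher. There 5 members were called lower against 43.6% of all genes: Smox 7.52-fold (5.20 to 11.3), Sat1 7.01-fold (6.48 to 7.60), Azin1 4.71-fold (4.38 to 5.06), Ahcy 3.07-fold (2.01 to 4.88) and Sms 2.79-fold (2.35 to 3.32). On the scale without secretory products, Srm was 11.9-fold (10.4 to 13.6) and Mat2a 2.75-fold (2.66 to 2.83) higher, where 27.8% of genes were called higher, and Smox, Sat1 and Azin1 were 3.45-fold, 3.22-fold and 2.16-fold lower, where 16.8% were called lower. Srm, Sat1, Smox and Azin1 were thus called in the same direction on both scales, while Odc1, Amd1 and Oaz1 had ratios of 0.806, 0.805 and 0.609 in CPM and 1.75, 1.75 and 1.33 without secretory products. The median log2 ratio was −1.10 in CPM and 0.02 on the second scale, beside −0.80 and 0.33 over all genes.

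Tgm4-rich cells had 6.41-fold more Srm (5.65 to 7.30) than proximal luminal cells, where 21.3% of 12745 genes were called higher. They had less of 4 members against 23.0% of all genes called lower: Sat1 2.75-fold (2.62 to 2.88), Smox 2.70-fold (2.19 to 3.36), Mat2a 2.43-fold (2.33 to 2.53) and Ahcy 2.39-fold (1.69 to 3.44). Azin1 was at a ratio of 1.02 (0.980 to 1.05) and Sms at 1.73 (1.58 to 1.89). Msmb-rich cells had 5.54-fold more Srm (4.86 to 6.34), where 18.1% of 12712 genes were called higher, and 5.32-fold less Sat1 (4.98 to 5.69), 3.40-fold less Smox (2.65 to 4.41) and 2.57-fold less Mat2a (2.45 to 2.69), where 25.1% were called lower. Mat2a was thus lower in these cells than in proximal luminal cells, while in ventral-type cells its ratio was 1.26 (1.22 to 1.30). Sms, Odc1 and Oaz1 also stood on both sides of 1 among the 3 secretory groups, with Odc1 at 0.806, 0.741 and 1.18 and Oaz1 at 0.609, 1.26 and 1.13 in ventral-type, Tgm4-rich and Msmb-rich cells. Stress genes summed to 13680 CPM in Tgm4-rich, 11214 in Msmb-rich, 4106 in ventral-type and 6998 in proximal luminal cells, and their part was not tested.

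Between secretory groups of the proximal library, Mat2a was 3.24-fold higher (3.08 to 3.40) in ventral-type than in Msmb-rich cells, where 2.86% of 10977 genes were called higher. Azin1, 2.57-fold (2.37 to 2.78), Smox, 2.21-fold (1.43 to 3.50), and Ahcy, 2.11-fold (1.30 to 3.52), were lower there, where 27.9% were called lower. On the scale without secretory products Mat2a was 5.61-fold higher (5.34 to 5.89), where 8.02% of genes were called higher. No other member was past the fold in either direction there, where 6.17% were called lower. The median log2 ratio over all genes was −0.69 in CPM and 0.10 on the second scale, beside −0.59 and 0.20 over the members.

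The same comparison in the ventral library, added after values were seen, had Mat2a at 3.76-fold (3.39 to 4.18), where 3.22% of 10942 genes were called higher, and Ahcy 2.58-fold lower (1.23 to 4.93) from 11 UMIs in Msmb-rich cells, where 7.18% were called lower. Without secretory products Mat2a was 5.07-fold higher (4.58 to 5.64) and no other member was called, where 7.39% were called higher and 3.13% lower. Mat2a was the member past the fold on both scales in both libraries. The 2 libraries were made with different kits and do not share cells.

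**Figure D4:**
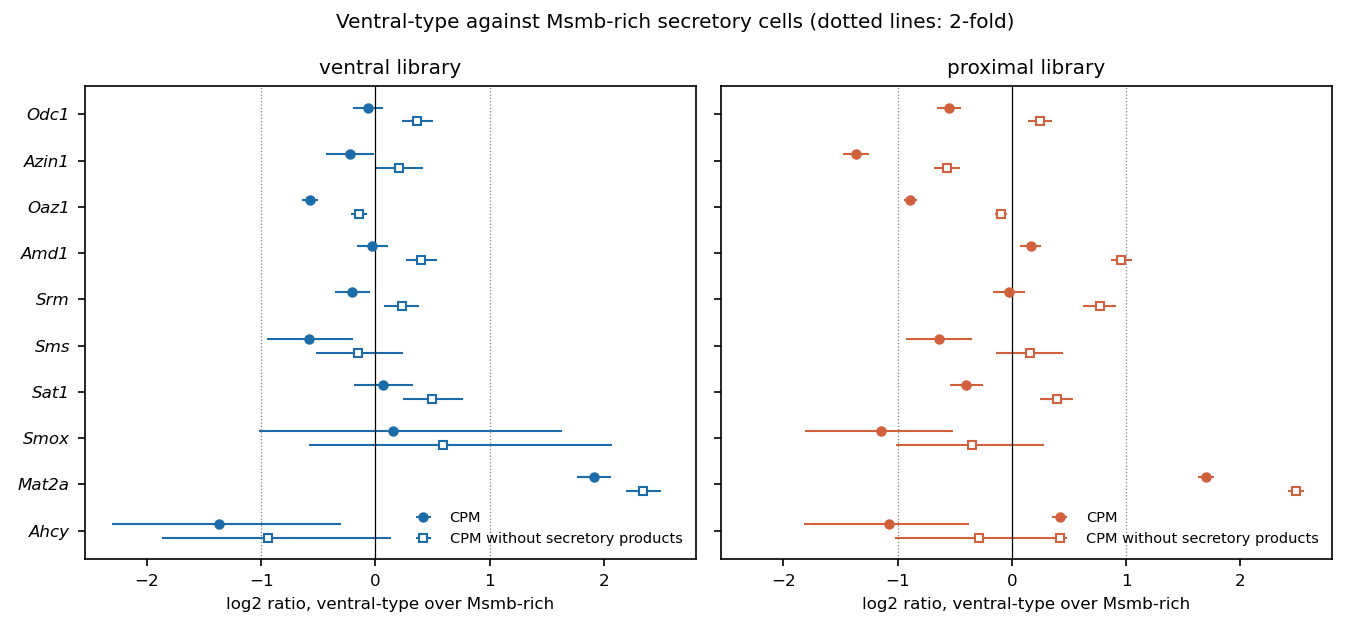
Log2 ratios of ventral-type over Msmb-rich secretory cells for the 10 genes in the ventral (left) and proximal (right) library, in CPM (filled circles) and CPM without secretory products (open squares), with exact 95% intervals and dotted lines at a 2-fold ratio. Mat2a is the gene beyond the right dotted line on both scales in both libraries, at ratios between 3.24 and 5.61.

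Tgm4-rich and Msmb-rich cells differed in Sms, 3.10-fold higher in Tgm4-rich cells (2.71 to 3.56), where 7.56% of 11548 genes were called higher. No member was called lower, where 6.84% were. Sat1 at 1.93 (1.79 to 2.09) and Azin1 at 1.86 (1.77 to 1.96) lay under the limit, and Mat2a was at 1.06 (1.00 to 1.12). Without secretory products Sms was 2.58-fold higher (2.26 to 2.96) and Mat2a was at 0.881 (0.833 to 0.932), on the other side of 1.

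Between proximal luminal and basal cells of the proximal library, none of the 10 genes was past the fold, where 12.0% of 12985 genes were called higher and 13.3% lower. The widest difference was Odc1, 1.94-fold lower in proximal luminal cells (1.85 to 2.04), followed by Sat1 at 1.58-fold (1.53 to 1.62) and Amd1 at 1.55-fold (1.49 to 1.62). The median log2 ratio was −0.41 over the members and 0.02 over all genes. Odc1 passed the limit under 8 alternatives: the mean of per-cell CPM, free RNA subtracted, at least 1000 genes per cell, at most 5% or 20% mitochondrial UMIs, the highest doublet scores removed, a clustering resolution of 1.5 and another random seed. Azin1 passed it at a resolution of 0.5. The lowest log2 ratio of Odc1 over the alternatives was −1.31, reached with the highest doublet scores removed. Against fibroblasts, proximal luminal cells had 3.41-fold less Srm (2.88 to 4.03) and 2.07-fold less Sms (1.85 to 2.31), where 26.5% of 13110 genes were called lower, and 2.01-fold more Smox (1.54 to 2.67), where 16.0% were called higher. Fibroblasts thus had more of both aminopropyltransferases.

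Between the libraries, none of the 10 members was past the fold in ventral-type secretory cells, where 10.4% of 11456 genes were called higher and 2.06% lower in the proximal library. The widest ratios were those of Ahcy at 1.65 (0.996 to 2.65), Srm, 1.52-fold lower (1.41 to 1.65), and Odc1, 1.38-fold lower (1.30 to 1.47), while Mat2a was at 1.31 (1.27 to 1.35). At a clustering resolution of 0.5, 3 members were past the fold, Sat1, Smox and Ahcy.

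Basal cells differed in 5 members. Azin1 was 6.59-fold (5.11 to 8.67), Mat2a 3.99-fold (3.29 to 4.91), Amd1 3.59-fold (2.87 to 4.55) and Sat1 2.22-fold (1.96 to 2.54) higher in the proximal library, where 26.9% of 10572 genes were called higher. Srm was 2.68-fold lower (1.85 to 3.78), where 15.9% were called lower. The members' median log2 ratio was 0.90, beside 0.20 over all genes. Without mixed cells the same 5 members were called, where 26.5% of 10563 genes were called higher and 15.9% lower. The fibroblast markers in the ventral basal cells, at 5306 against 1342 CPM, moved with this comparison and their part was not tested.

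Proximal luminal cells of the proximal library had 4.22-fold more Azin1 (3.59 to 5.00), 3.64-fold more Smox (1.96 to 7.63) and 2.15-fold more Sat1 (1.94 to 2.40) than those of the ventral library, where 26.5% of 11687 genes were called higher, and 4.52-fold less Srm (3.58 to 5.67), where 13.9% were called lower. The members' median log2 ratio was 0.58, beside 0.19 over all genes. On the scale without secretory products Azin1 and Smox were still called higher, where 18.6% of genes were, and Srm lower, where 21.8% were. Without mixed cells Srm was 2.07-fold lower (1.23 to 3.29), Azin1 3.21-fold (2.57 to 4.07) and Smox 2.42-fold (1.10 to 6.61) higher, Sat1 was at 1.20 (1.06 to 1.37) and no longer past the fold, and Mat2a was 3.33-fold higher (2.73 to 4.10), where 12.7% of 11579 genes were called higher and 19.6% lower. Azin1 was thus higher in the proximal library in both basal and proximal luminal cells, and Srm lower. For these values, too, region cannot be told apart from kit version.

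The 42 further pathway genes were compared between the same groups, and each count of them is set beside the share of all genes called. In the ventral library, 1 of 36 with enough UMIs was higher and 5 were lower in secretory than in proximal luminal cells, where 1.02% and 29.8% of all genes were. Gnmt, whose enzyme uses S-adenosylmethionine to methylate glycine, was 2.13-fold higher (1.53 to 3.07), and Azin2 at 3.67-fold and Gamt at 2.67-fold were among the lower genes. Leaving out secretory products, 5 were higher and 1 was lower, where 3.92% and 11.4% were. Without mixed cells, 3 were higher and 8 lower in CPM, where 1.83% and 45.2% were. Gnmt was then 5.94-fold higher (2.54 to 18.3) from 5 UMIs in proximal luminal cells, Azin2 was 7.90-fold lower from 6, and Gamt, from 3 UMIs, was 1.12-fold lower (0.228 to 3.31) and not called. Against ventral basal cells, 4 of 36 were higher, beside 6.89% of all genes, with Adi1 of the methionine salvage route at 6.57-fold (3.91 to 12.0), Adk at 3.78-fold and Asl at 3.30-fold. There 13 were lower, beside 32.4%, with Oat, which takes ornithine away from polyamine synthesis, at 8.90-fold, Cbs, which leads homocysteine to cysteine, at 6.81-fold and the transporter subunit Slc3a2 at 6.16-fold. Without secretory products the counts were 9 and 3, beside 20.3% and 11.6%, and without mixed cells they were again 4 and 13 in CPM. Proximal luminal over basal cells had 5 of 20 higher and 5 lower, beside 19.2% and 13.2% of all genes, with Adi1 at 5.07-fold and Asl at 2.62-fold among the higher, and with Oat, Cbs and Slc3a2 lower at 4.53-fold, 4.07-fold and 3.97-fold. Without mixed cells 13 had enough UMIs, of which 4 were higher and 3 lower, beside 25.7% and 9.7%, with Adi1 at 4.39-fold higher and Cbs, Oat and Slc3a2 at 5.61-fold, 3.24-fold and 3.19-fold lower.

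In the proximal library, ventral-type over proximal luminal cells had 7 of 36 higher and 13 lower in CPM, beside 7.39% and 43.6% of all genes, and 16 higher and 2 lower on the scale without secretory products, beside 27.8% and 16.8%. Adi1 was 8.13-fold (7.08 to 9.37), Asl 4.52-fold and Gnmt 3.78-fold higher, and Slc3a2 was 3.96-fold and, from 2 UMIs against 79, Oaz3 18.6-fold lower (4.98 to 156). Tgm4-rich cells had 13 of 37 higher and 3 lower, beside 21.3% and 23.0%, with Nnmt at 13.6-fold (5.81 to 38.7), Gnmt at 7.17-fold and Ass1 at 5.58-fold, and with Azin2 lower at 3.61-fold and Ahcyl2 at 3.05-fold. Msmb-rich cells had 13 of 37 higher and 7 lower, beside 18.1% and 25.1%, with Nnmt at 19.3-fold, Cbs at 14.3-fold (12.0 to 17.0) and Gnmt at 8.68-fold, and with Oaz3 lower at 5.85-fold and Azin2 at 4.06-fold. Gnmt was thus higher than in proximal luminal cells in each secretory group of the proximal library.

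Proximal luminal over basal cells of that library had 4 of 36 higher and 4 lower, near the 12.0% and 13.3% of all genes, with Oaz3 at 2.39-fold and Mtap at 2.03-fold, and with Cbs lower at 8.04-fold, Cth at 3.20-fold and Gnmt at 2.52-fold. Over fibroblasts, 4 of 37 were higher and 9 lower, beside 16.0% and 26.5%, with Oaz3 at 3.37-fold among the higher, and with Nnmt lower at 63.9-fold, Ass1 at 7.37-fold and Gamt at 5.16-fold. Oaz3 was thus higher in proximal luminal cells than in both. Tgm4-rich over Msmb-rich cells had 4 of 35 higher (Ass1 at 6.68-fold, Gamt at 5.22-fold and Oaz3 at 5.18-fold among them) and 2 lower (Cbs at 4.17-fold and Adi1 at 3.11-fold), beside 7.56% and 6.84%. Ventral-type over Msmb-rich cells had 1 of 32 higher, Adi1 at 2.17-fold, and 7 lower in the proximal library, led by Cbs at 14.1-fold, Slc3a2 at 2.90-fold and Oat at 2.50-fold, beside 2.86% and 27.9%. In the ventral library 1 of 36 was higher and 2 were lower, Cbs at 3.52-fold and Slc3a2 at 2.07-fold, beside 3.22% and 7.18%. Without secretory products the counts were 3 higher and 1 lower in each library, beside 8.02% and 6.17% in the proximal and 7.39% and 3.13% in the ventral library. A gene with 0 UMIs in 1 group was counted as past the fold when its interval left out 1, even where its bound is below 2. Cbs was therefore lower in ventral-type than in Msmb-rich cells in both libraries.

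Between libraries, ventral-type cells had 2 of 36 higher in the proximal library, Nnmt at 3.67-fold among them, and 0 lower, beside 10.4% and 2.06% of all genes. Proximal luminal cells had 7 of 35 higher, beside 26.5%, with Cth at 8.05-fold (2.20 to 66.9) from 2 ventral UMIs, with Pemt at 86 UMIs against 0, at least 2.18-fold by a floor of 3 UMIs over the group, and with Oaz3 at 79 against 0, a bound just under 2-fold. They had 10 lower, beside 13.9%, led by Adi1 at 8.16-fold, Gnmt at 3.63-fold and Cbs at 3.53-fold, and the counts without secretory products were 5 and 14, beside 18.6% and 21.8%. Without mixed cells 3 were higher and 7 lower, beside 12.7% and 19.6%, with Adi1 at 6.74-fold and Cbs at 2.59-fold lower, while Gnmt, at 1.30-fold lower (0.415 to 3.12) from 5 ventral UMIs, Pemt and Oaz3 were no longer called. Basal cells had 4 of 31 higher, beside 26.9%, led by Ahcyl2 at 5.47-fold, Adk at 4.45-fold and the polyamine transporter Atp13a3 at 2.92-fold, and 5 lower, beside 15.9%, led by Oaz2 at 3.33-fold, Adi1 at 2.74-fold and Gnmt at 2.47-fold. Without mixed cells 4 were lower there. Adi1 was thus lower in the proximal library in both groups, with and without mixed cells.

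Over the same 12 groups, the members were related to each other and to other genes by Pearson's r of log2(CPM + 10), given as a description of 12 points that share 2 libraries, mixed cells kept, with no p. Srm ran against Sat1 (r = −0.84) and Smox (r = −0.83), and Odc1 ran with Smox (r = 0.82), Azin1 with Ahcy (r = 0.75), Sms with Oaz1 (r = 0.75) and Sms with Sat1 (r = 0.74). Srm and Sms, the genes of consecutive steps, were at r = −0.55. Of 9861 genes compared, those nearest to Srm were Etfrf1 (0.97), Copz2 (0.97) and Pecr (0.95), those nearest to Sat1 were Gtf2f1, Paip1 and Pcna (0.97 each), and those nearest to Azin1 included Ubb (0.98) and Eif4g2 (0.97). Smox was nearest to Tank (0.99), Map3k14 (0.98) and Zc3h12a (0.97), and Odc1 to Tbc1d8 (0.96), Lfng (0.96) and P3h2 (0.95). Sms was nearest to Id2 (0.94), Smc6 (0.93) and Maz (0.92), Oaz1 to Arl3, Pabpc4 and Hdac2 (0.91 each), Ahcy to Aste1 (0.93), Rnf11 (0.92) and Arhgap35 (0.92), and Amd1 to Cdk19 (0.90), Prkaa2 (0.88) and Mctp2 (0.88). Mat2a had no close neighbour, with Qser1 at 0.80, Irf2 at 0.77 and Epha4 at 0.75.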

How the data were processed

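Droplet single-cell RNA-seq of 2 libraries was used. The deposited matrices hold whole-number UMI counts per gene and cell barcode, made with Cell Ranger 7.0.0 on mm10 per the submitters' processing notes; whether strand was used in counting is not given in the sources used here. The rows cover 32285 genes in 2221 ventral and 4344 proximal barcodes, each library having had a target of 5000 cells per the labels. Tissue was dissociated with papain and TrypLE per the labels' protocols.

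Cells with at least 500 genes and at most 10% mitochondrial UMIs were kept (226 ventral and 635 proximal barcodes removed). Scrublet marked 11 cells (0.193% of 5704), which were removed; a share this low is not relied on, and doublets may remain. Per library, counts were normalized to 10000 per cell, log-transformed and clustered (scanpy 1.11.5; 2000 variable genes without the members and pathway genes, 30 components, 15 neighbours, Leiden resolution 1, seed 0). A cluster was named from at least 3 markers found in at least 25% of its cells, unless another class led its top 10 genes; genes within 1.5-fold over all clusters were left out of that check, and both limits were set after clusters were looked at.

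UMIs were summed per group; CPM have exact Poisson intervals and ratios exact conditional intervals. Genes with at least 50 UMIs over both groups were compared. Intervals cover counting error only. For shares, cells were thinned to 1000 UMIs with Clopper-Pearson intervals, and a count of 0 has a floor of 3 UMIs over the group. On simulated data, 100%, 100% and 99.5% of 200 genes changed 3-fold were recovered for secretory over proximal luminal cells (ventral, 10973 genes), ventral-type over proximal luminal (12319 genes) and ventral-type over Msmb-rich cells (proximal, 10964 genes). Of the unchanged genes, 1.34%, 0.165% and 0.0929% were called. The changed genes had at least 100 expected UMIs in the group with fewer UMIs, and counts were Poisson draws. Recovery was thus near certain, and it does not cover genes with few UMIs or spread between cells. Named were all 10 members, up to 3 pathway genes per direction and comparison by ratio, and the 3 genes of highest r per member; a few genes that this rule names are not reported here, though they stay in the counts. The members, lists and comparisons were chosen with earlier results of these data known. Positions are from GENCODE M21 on GRCm38. Alternatives in scaling, summing, filters, clustering, doublets, free RNA, mixed cells and threshold were run (Python 3.11.15, scipy 1.17.1, numpy 2.4.6, pandas 2.3.3).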

Additional observations from a re-analysis of the deposited data

Results flagged for a closer look

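The Mat2a level of macrophages relative to basal cells had opposite directions in the 2 libraries, and the difference was not tested. In the ventral library the log2 ratio was 1.39, from 370 CPM in 30 macrophage cells and 141 CPM in 141 basal cells. In the proximal library it was −1.22, from 242 CPM in 79 macrophage cells and 562 CPM in 909 basal cells. A single cell held 45.3% of the Mat2a UMIs of the ventral macrophages. Without mixed cells, the ventral log2 ratio was 0.74, from 242 CPM (25 UMIs) and 144 CPM (102 UMIs). The macrophage levels were then alike in both libraries at 242 CPM, while those of the basal cells were 144 and 562 CPM.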

How the results depend on the processing

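No paired analysis was possible because each region has 1 library, and no replicate could be left out for the same reason. Of 2797 log2 ratios of members recomputed under the alternatives, 2258 stayed within the interval of the reported value, 538 moved past it and 1 reversed: Oaz1 in secretory luminal over basal cells of the ventral library, from −1.06 to 0.046 with median-of-ratios size factors. Of 280 recomputed counts of members past the fold, 237 stayed within 1.5 times and 43 did not.

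A ratio of at least 3 left 1 member in place of 4 for secretory over proximal luminal cells and 3 in place of 6 for secretory over basal cells (ventral), 0 in place of 2 for proximal luminal over basal cells (ventral), 1 in place of 5 for Tgm4-rich over proximal luminal cells, 1 in place of 3 for proximal luminal cells over fibroblasts, 1 in place of 4 (proximal) and of 2 (ventral) for ventral-type over Msmb-rich cells, and 3 in place of 5 for basal cells between libraries. A ratio of at least 1.5 gave 3 in place of 0 for proximal luminal over basal cells (proximal), 5 in place of 3 over fibroblasts, 5 in place of 1 for Tgm4-rich over Msmb-rich cells and 1 in place of 0 for ventral-type cells between libraries.

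For secretory over proximal luminal cells (ventral), 1 member was left without the 1% of cells richest in the gene and 2 with at most 5% mitochondrial UMIs. For proximal luminal over basal cells (ventral), 1 of 2 was left with the mean of per-cell CPM, at least 1000 genes per cell, at most 5% or 20% mitochondrial UMIs, and resolutions of 0.5 and 1.5. In the proximal library, 1 in place of 0 was past the fold with the mean of per-cell CPM, 5% free RNA subtracted, at least 1000 genes, at most 5% or 20% mitochondrial UMIs, the highest Scrublet scores removed, resolutions of 0.5 (Azin1) and 1.5, and seed 1 (Odc1). Proximal luminal cells over fibroblasts had 1 with the mean of per-cell CPM. Tgm4-rich over Msmb-rich cells had 2 in place of 1 with that mean, without the richest 1% of cells, with free RNA subtracted and with the highest Scrublet scores removed. Ventral-type over Msmb-rich cells (proximal) had 1 without secretory products (also without mixed cells, an alternative added after seeing the data), with median-of-ratios size factors and at resolution 0.5, and 2 with the highest Scrublet scores removed; in the ventral library, a comparison added after seeing the data, 1 was left with the same 3 scalings. Ventral-type cells between libraries had 3 at resolution 0.5. Why these counts moved was not tested. Depth limits Ahcy, with 86 ventral and 630 proximal UMIs, and Smox in the ventral library.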
